A study of Mus musculus with 26 samples.

Results

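Matrix proteases and their inhibitors were followed as 10 genes: the matrix metalloproteinases Mmp2, Mmp9 and Mmp14, the secreted proteases Adamts1, Adamts2 and Adamts5, and the tissue inhibitors of metalloproteinases Timp1, Timp2, Timp3 and Timp4. They were found by the gene symbol that the array's annotation gives each probe set, a group of short probes that together read 1 transcript. Probe sets naming exactly 1 gene were present for 9 of the 10, 25 probe sets in all out of 45101 on the array. Adamts2 had none and is not analysed here. Of the 25, 23 had a mean signal above the filter used for all genes, and each of the 9 genes kept at least 1, so the 9 are among 14854 genes tested.

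RNA came from the tibialis anterior and extensor digitorum longus, which are fast leg muscles, of 26 mice with 1 array per mouse. The design crossed calorie restriction (CR) with a knockout of PGC-1a, encoded by Ppargc1a, restricted to skeletal muscle, and its title asks whether that coactivator carries the muscle's metabolic answer to CR. The 4 groups were CR mice labelled MKO, the knockout (n = 7), CR mice with the floxed genotype, FLOX (n = 6), control-diet mice labelled MKO (n = 7) and control-diet FLOX mice (n = 6). The mice were singly housed littermates of mixed C57/BL6 and 129 background, all on 1 purified diet, with intake under free feeding recorded over 10 days or more beforehand. CR mice then ate 80% of that intake in the first week and 60%, from a diet made for 40% restriction, over about 11 further weeks. Control mice ate 90%, so they were themselves mildly restricted. The sources used here do not give the promoter driving Cre, the sex or the age.

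All 5 probe sets of Ppargc1a were brighter in mice labelled MKO than in FLOX mice, by 1.34- to 1.57-fold on CR and by 1.53- to 1.76-fold on the control diet. The sources used here do not say where these probes lie relative to the deleted part, so they do not check the label, and the mice are called "labelled MKO" throughout. Arrays of 1 group correlated at 0.984 to 0.996. All 15 muscle fibre markers passed the filter, with a summed intensity of 387683 to 411644 per mouse. CR mouse 6 labelled MKO, control-diet mouse 4 labelled MKO and control-diet FLOX mouse 1 had a mean log2 signal of 11.03, 9.87 and 9.78 over the slow-fibre genes Myh7, Tnni1 and Tnnt1, against at most 9.53 in the other mice, and results that change without these 3 are given with and without them. Over 10 slow-fibre markers, the median log2 change from FLOX mice to mice labelled MKO was 0.43 on each diet. It was -0.02 over all genes. Summed slow-fibre intensity was 13067 to 32700 in CR mice labelled MKO and 7459 to 13069 in CR FLOX mice. On the control diet it was 12272 to 24457 in mice labelled MKO and 6120 to 18202 in FLOX mice. The part of this signal in the differences between genotypes was not tested.

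Matrix metalloproteinases are zinc enzymes made as inactive precursors that cut collagens and other proteins outside the cell. The membrane-bound Mmp14 activates the Mmp2 precursor, and Timp2 takes part in that step by holding the precursor to Mmp14, while an excess of Timp2 blocks both enzymes. In skeletal muscle these genes are expressed largely by connective tissue, vessel and immune cells as well as by fibres, and they take part in the turnover of the collagen sheath around the fibres. Adamts1 and Adamts5 cut proteoglycans such as versican, and Timp3, which binds to the matrix, is the inhibitor best known for acting on Adamts proteases.

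Upstream sequences were available for 7 of the 10 genes in the RefSeq table (GRCm38.p6). Those of 3 inhibitors are shown because Timp2 passed the diet tests described later while Timp3 and Timp4 did not, although a difference between genes was not tested. Each sequence is the 250 bases before the transcript's start, 5′ to 3′ on the gene's own strand, and capitals mark the GC box GGGCGG on either strand. The positions are chr11:118355412-118355661 on the minus strand for Timp2, chr10:86300162-86300411 on the plus strand for Timp3 and chr6:115252206-115252455 on the minus strand for Timp4.
Timp2: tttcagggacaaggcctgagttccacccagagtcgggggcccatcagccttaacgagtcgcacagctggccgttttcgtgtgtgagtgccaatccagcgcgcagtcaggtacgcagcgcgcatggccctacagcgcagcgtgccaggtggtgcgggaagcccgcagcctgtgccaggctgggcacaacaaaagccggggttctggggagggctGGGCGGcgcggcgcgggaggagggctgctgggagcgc
Timp3: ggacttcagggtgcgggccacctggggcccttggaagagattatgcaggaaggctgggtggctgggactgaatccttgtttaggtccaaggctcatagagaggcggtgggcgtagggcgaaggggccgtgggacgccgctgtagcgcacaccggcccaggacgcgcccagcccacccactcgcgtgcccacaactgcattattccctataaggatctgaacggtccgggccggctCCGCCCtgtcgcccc
Timp4: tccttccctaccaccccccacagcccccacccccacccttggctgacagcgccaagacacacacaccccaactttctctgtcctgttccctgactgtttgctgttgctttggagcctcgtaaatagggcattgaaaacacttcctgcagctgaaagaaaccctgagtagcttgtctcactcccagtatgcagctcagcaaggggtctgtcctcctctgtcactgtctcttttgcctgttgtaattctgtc
Timp2 held 1 GC box beginning at base -37 and Timp3 held 1 at -15, counted from the start site, while Timp4 held none. On both strands, GGGCGG occurs in 32.7% of the 32851 upstream sequences of the same length. The AP-1-like motif TGANTCA (6.75% of all), the E-box CACGTG (6.02%) and TATAAA (12.4%) were absent from these 3 windows. G and C made up 68% of the Timp2 window, 65.6% of the Timp3 window and 53.6% of the Timp4 window. Of the other windows, Timp1 held 1 GC box, Mmp14 held 2, Adamts2 held 5 and Adamts1, the next protein-coding neighbour of Adamts5 on chromosome 16, held 3 with a TATAAA at -32. Such matches describe letters and are not evidence of binding.

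On CR, 3 of the 9 genes were lower in mice labelled MKO, namely Mmp2, Timp2 and Adamts5, and none was higher. In that comparison 8.48% of all genes tested were lower and 6.64% were higher. The same 3 genes were lower on CR in FLOX mice, where 5.37% of all genes were lower and 4.66% higher, and again none of the 9 was higher. The median log2 change of the 9 genes was -0.08 in mice labelled MKO and -0.01 in FLOX mice, against 0.00 over all genes in both. Intensities are the deposited linear signals, changes are differences of log2(intensity + 16) with their standard error (SE), and a gene was called at a limma adjusted p under 0.05. These are bulk muscle samples, in which fewer cells of a type and less RNA per cell cannot be told apart.

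**Figure D1:**
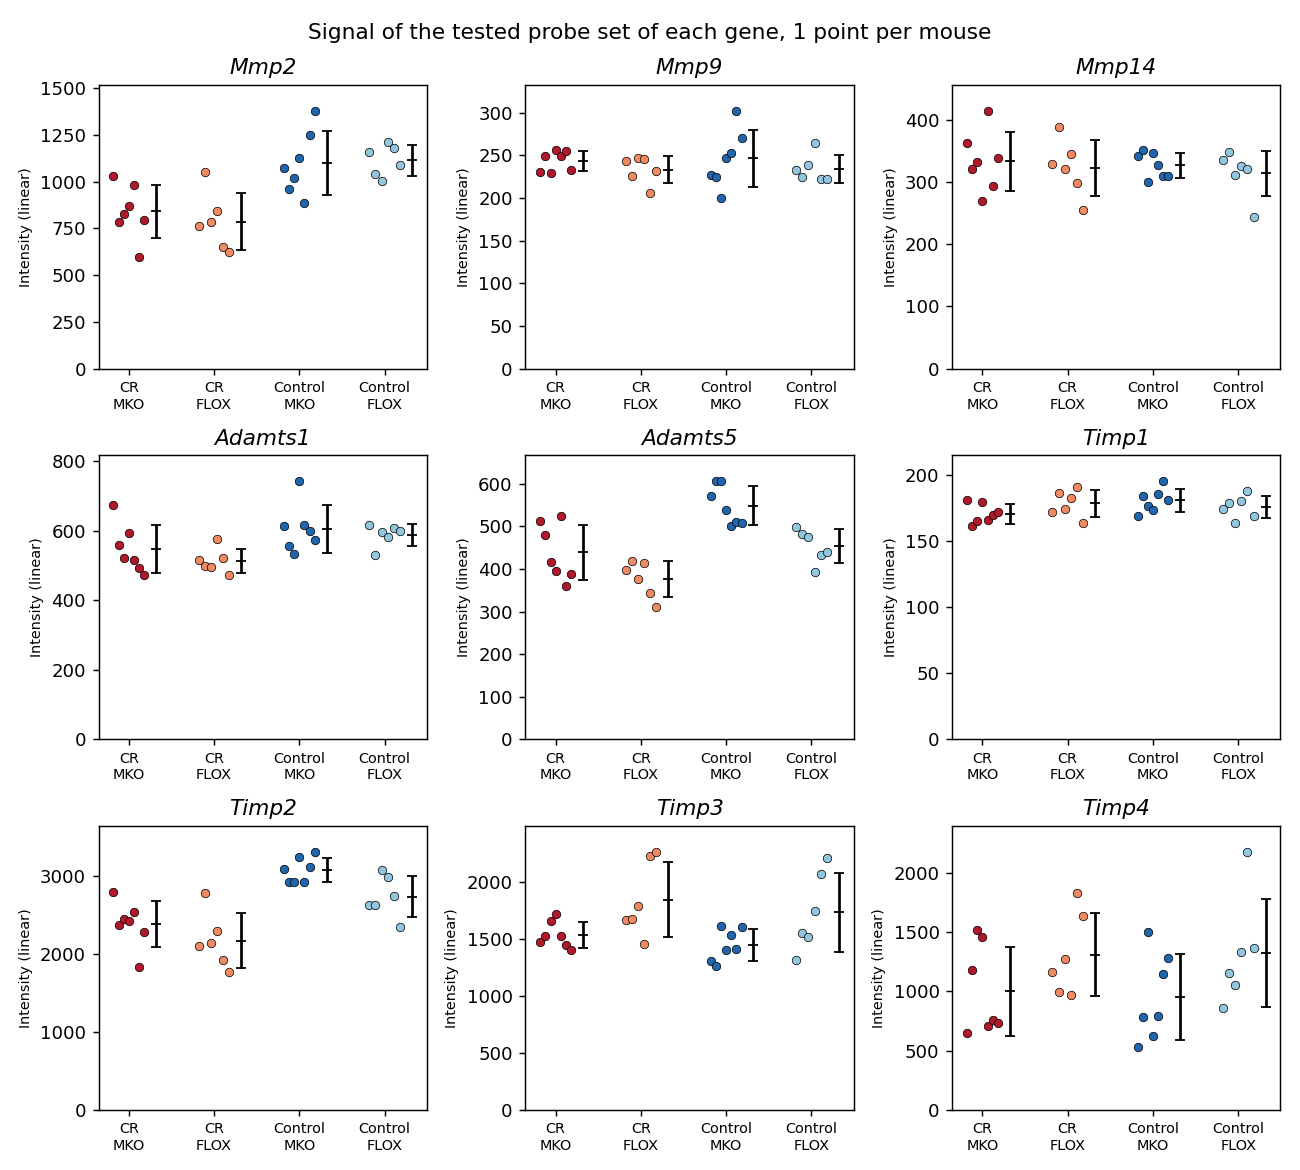
Linear intensity (vertical axis) of the probe set tested for each of the 9 genes in the 4 groups, with 1 point per mouse and the mean with its SD as a bar beside the points. For Mmp2, Timp2 and Adamts5 many CR mice sit below all control-diet mice of their own genotype (5 of 7, 7 of 7 and 5 of 7 mice labelled MKO, and 5, 5 and 3 of 6 FLOX mice).

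Mmp2, gelatinase A, cuts denatured collagen and the type IV collagen of basement membranes. Its intensity in CR mice labelled MKO had a lowest, median and highest value of 598, 829 and 1030, against 886, 1070 and 1378 in control-diet mice labelled MKO. In CR FLOX mice these were 624, 775 and 1049, against 1001, 1124 and 1214 in control-diet FLOX mice. The groups overlapped in both genotypes, with 5 of 7 CR mice labelled MKO and 5 of 6 CR FLOX mice below every control-diet mouse of their genotype. Mmp2 was 1.30-fold lower on CR in mice labelled MKO (log2 change -0.38 ± 0.11 SE, limma adjusted p = 0.0175). In FLOX mice it was 1.43-fold lower (log2 change -0.51 ± 0.12 SE, limma adjusted p = 0.00557). Without the 3 mice of high slow-fibre signal, the change in mice labelled MKO became -0.30 with a limma adjusted p of 0.0888 and was no longer called.

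Timp2 is the inhibitor that also helps to activate the Mmp2 precursor. It measured 1838, 2429 and 2793 (lowest, median, highest) in CR mice labelled MKO, against 2925, 3097 and 3316 in control-diet mice labelled MKO. The values were 1777, 2123 and 2787 in CR FLOX mice, against 2354, 2695 and 3076 in control-diet FLOX mice. All 7 CR mice labelled MKO lay below all 7 control-diet mice labelled MKO, a separation that 3.48% of genes showed in that comparison in either direction, and 5 of 6 CR FLOX mice lay below all control-diet FLOX mice. Timp2 was 1.29-fold lower on CR in mice labelled MKO (log2 change -0.37 ± 0.08 SE, limma adjusted p = 0.00252). In FLOX mice it was 1.27-fold lower (log2 change -0.34 ± 0.09 SE, limma adjusted p = 0.0127). The FLOX call was lost when the Timp2 probe sets were averaged (log2 change -0.24, limma adjusted p = 0.0581).

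Adamts5, a protease of aggrecan and versican, had 361, 417 and 523 (lowest, median, highest) in CR mice labelled MKO, against 500, 538 and 606 in control-diet mice labelled MKO. It had 311, 386 and 419 in CR FLOX mice, against 392, 458 and 499 in control-diet FLOX mice. Ranges overlapped in both genotypes, and 5 of 7 CR mice labelled MKO and 3 of 6 CR FLOX mice were below every control-diet mouse of their genotype. Adamts5 was 1.25-fold lower on CR in mice labelled MKO (log2 change -0.32 ± 0.08 SE, limma adjusted p = 0.00651). In FLOX mice it was 1.20-fold lower (log2 change -0.26 ± 0.08 SE, limma adjusted p = 0.0474), a call close to the threshold. That FLOX call was lost when any 1 of 14 mice was left out, with adjusted p values up to 0.132 over all 26 omissions. The 14 were CR mouse 3 labelled MKO, CR FLOX mice 1, 3, 5 and 6, control-diet mice 1, 4, 6 and 7 labelled MKO and control-diet FLOX mice 1, 2, 3, 5 and 6. The FLOX call was also lost without the 3 mice of high slow-fibre signal (log2 change -0.24, limma adjusted p = 0.0926) and with averaged probe sets (log2 change -0.16, limma adjusted p = 0.0769).

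Adamts1, another versican-cutting protease, did not pass in either genotype. In mice labelled MKO it measured 474, 522 and 675 on CR (lowest, median, highest), against 533, 599 and 743 on the control diet, and the ranges overlapped. The log2 change was -0.14 (95% interval -0.28 to -0.01, limma adjusted p = 0.168), and without CR mouse 1 labelled MKO its adjusted p was 0.0352. In FLOX mice the values were 474, 508 and 577 on CR, against 530, 598 and 617 on the control diet, with 5 of 6 CR mice below all control-diet mice. Here the log2 change was -0.19 (95% interval -0.34 to -0.04, limma adjusted p = 0.0996), and Adamts1 passed when only the arrays of the 2 groups compared were fitted (limma adjusted p = 0.0247).

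Of the remaining 5 genes, the tested probe sets of the proteases Mmp9 and Mmp14 and the inhibitor Timp1 had diet changes near 0. Mmp9, gelatinase B, which neutrophils and macrophages make in quantity, had 230, 249 and 256 in CR mice labelled MKO, against 201, 247 and 302 in control-diet mice labelled MKO. It had 205, 237 and 246 in CR FLOX mice, against 222, 229 and 264 in control-diet FLOX mice, and the diets overlapped in both genotypes. Its log2 change was -0.01 in mice labelled MKO (95% interval -0.14 to 0.12) and -0.01 in FLOX mice (95% interval -0.14 to 0.13). Mmp14, the activator of Mmp2, had 269, 332 and 414 in CR mice labelled MKO, against 300, 327 and 351 in control-diet mice labelled MKO. It had 256, 325 and 388 in CR FLOX mice, against 244, 323 and 348 in control-diet FLOX mice, again with overlap throughout. Its log2 change was 0.02 in mice labelled MKO (95% interval -0.15 to 0.19) and 0.03 in FLOX mice (95% interval -0.15 to 0.22). A second Mmp14 probe set, of a similar mean intensity (315, against 324 for the tested one), gave -0.31 on CR in mice labelled MKO (95% interval -0.55 to -0.06, limma adjusted p = 0.0848) and 0.12 in FLOX mice (95% interval -0.14 to 0.39), without passing. Timp1, a soluble inhibitor induced in injury, lay between 162 and 196 in all 26 mice, with log2 changes of -0.08 in mice labelled MKO (95% interval -0.15 to -0.00058) and 0.02 in FLOX mice (95% interval -0.06 to 0.10). The lowest signal on an array lay between 56.6 and 62.8, so changes of weak signals are understated. Timp1 lay below every array's median (212 to 232), with a mean log2 of 7.59 against the filter at 7.47, so a change in it could be missed. Mmp9, with group means of 233 to 246, lay close to these medians, so a change in it could be missed as well.

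Timp3 and Timp4 did not pass with diet. In mice labelled MKO Timp3 measured 1403, 1519 and 1719 on CR, against 1255, 1408 and 1607 on the control diet, a log2 change of 0.09 (95% interval -0.12 to 0.29). In FLOX mice it measured 1450, 1728 and 2261 on CR, against 1313, 1645 and 2208 on the control diet, a log2 change of 0.09 (95% interval -0.13 to 0.32). Timp4, the inhibitor known for its expression in heart and muscle, had the widest intervals of the 9 genes. In mice labelled MKO it had 647, 756 and 1520 on CR, against 526, 790 and 1503 on the control diet (log2 change 0.08, 95% interval -0.41 to 0.57). In FLOX mice it had 969, 1215 and 1827 on CR, against 855, 1245 and 2178 on the control diet (log2 change 0.01, 95% interval -0.52 to 0.53). Its mice spread over most of the same range on both diets.

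**Figure D2:**
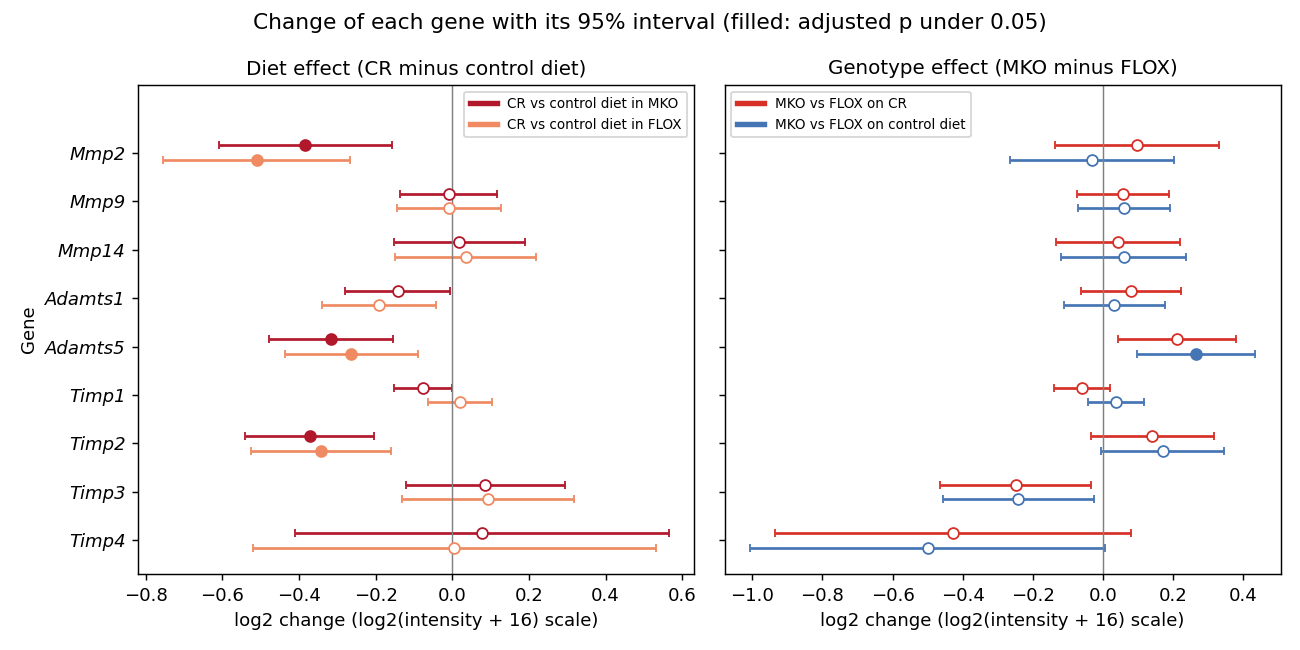
Log2 change of each gene (horizontal axis) with its 95% interval, for CR against control diet in each genotype (left) and for mice labelled MKO against FLOX mice on each diet (right). Filled points passed at a limma adjusted p under 0.05: Mmp2, Adamts5 and Timp2 on the left in both genotypes, and Adamts5 on the control diet on the right.

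Between genotypes on the control diet, 1 of the 9 genes passed: Adamts5 was higher in mice labelled MKO, where 9.05% of all genes were higher and 19.3% passed in either direction. Its intensity was 500, 538 and 606 (lowest, median, highest) in control-diet mice labelled MKO, against 392, 458 and 499 in control-diet FLOX mice. All 7 mice labelled MKO were above all 6 FLOX mice, a separation that 6.64% of genes showed there in either direction, though the lowest of the first and the highest of the second nearly touched. The rise was 1.20-fold (log2 change 0.27 ± 0.08 SE, limma adjusted p = 0.022), and leaving out control-diet FLOX mouse 4 brought the adjusted p to 0.0649. On CR the values were 361, 417 and 523 in mice labelled MKO, against 311, 386 and 419 in FLOX mice, a log2 change of 0.21 (95% interval 0.04 to 0.38, limma adjusted p = 0.0755). That change passed without CR mouse 6 labelled MKO (limma adjusted p = 0.0307) and without the 3 mice of high slow-fibre signal, of which it is 1 (limma adjusted p = 0.0358). The order of group means was control-diet mice labelled MKO (549), control-diet FLOX mice (454), CR mice labelled MKO (440) and CR FLOX mice (376), and the ranges of the middle pair overlapped.

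None of the 9 genes passed between genotypes on CR, where 17.3% of all genes did. In that comparison 2 of the 9 genes had an unadjusted limma p under 0.05, Adamts5 and Timp3, as had 4348 of all genes. Timp3, the matrix-bound inhibitor, measured 1403, 1519 and 1719 in CR mice labelled MKO, against 1450, 1728 and 2261 in CR FLOX mice, a log2 change of -0.25 (95% interval -0.46 to -0.03, limma adjusted p = 0.108). On the control diet it measured 1255, 1408 and 1607 in mice labelled MKO, against 1313, 1645 and 2208 in FLOX mice (log2 change -0.24, 95% interval -0.46 to -0.03, limma adjusted p = 0.109). Single mice moved these values past the threshold: without CR FLOX mouse 4 the adjusted p on CR was 0.0433, and without control-diet FLOX mouse 1 that on the control diet was 0.0308.

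Timp4 had the largest differences between genotypes of the 9 genes in size, at -0.43 on CR (95% interval -0.94 to 0.08, limma adjusted p = 0.259) and -0.50 on the control diet (95% interval -1.01 to 0.01, limma adjusted p = 0.164), without passing. On each diet 4 of 7 mice labelled MKO lay below all FLOX mice. Timp2 differed by 0.14 on CR (95% interval -0.03 to 0.32) and by 0.17 on the control diet (95% interval -0.0039 to 0.35), also without passing. For the tested probe sets of Mmp2, Mmp9, Mmp14, Timp1 and Adamts1 the differences between genotypes lay within 0.10 of 0 on both diets. A second Mmp14 probe set gave -0.40 on CR and passed (limma adjusted p = 0.0259). The second Mmp2 probe set gave -0.18 on the control diet without passing.

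The diet effect in mice labelled MKO minus that in FLOX mice was tested as an interaction, which 0% of all genes and 0 of the 9 passed in limma. Interaction estimates of the 9 genes ran between -0.10 and 0.13 on the log2 scale, with 95% intervals reaching at most -0.65 and 0.79. The smallest unadjusted limma p was 0.0879, and 720 of all genes had one under 0.05. The widest interval was that of Timp4, which did not pass with diet. The Timp2 interval, -0.28 to 0.22, excluded a difference as large as its diet changes (-0.37 in mice labelled MKO, -0.34 in FLOX mice). The Mmp2 interval, -0.20 to 0.46, reached past its change in mice labelled MKO (-0.38) in size but not that in FLOX mice (-0.51). The Adamts5 interval, -0.29 to 0.18, reached past its change in FLOX mice (-0.26) in size but not that in mice labelled MKO (-0.32). These intervals leave room for smaller differences, so the diet effects are not shown to be alike in the 2 genotypes.

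The genes with several probe sets allow a check of each other within the same arrays. Over probe sets, 7 of 23 were lower on CR in mice labelled MKO, against 8.46% of all probe sets, and 5 of 23 in FLOX mice, against 5.39%. Both Mmp2 probe sets were called in both genotypes, the dimmer one at -0.47 in mice labelled MKO (limma adjusted p = 0.00461) and at -0.65 in FLOX mice (limma adjusted p = 0.000912). It had 462, 550 and 777 in CR FLOX mice, against 797, 900 and 955 in control-diet FLOX mice. For Timp2 all 5 changes were negative in both genotypes, between -0.37 and -0.19 in mice labelled MKO, where 3 passed, and between -0.34 and -0.16 in FLOX mice, where 1 passed. For Adamts5, 2 of 3 were lower on CR in each genotype. The third gave -0.08 in mice labelled MKO (limma adjusted p = 0.125) and 0.00066 in FLOX mice (limma adjusted p = 0.994).

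Between genotypes, 4 of 23 probe sets were higher in mice labelled MKO on the control diet, against 8.97% of all probe sets: all 3 of Adamts5 and 1 of Timp2. That Timp2 probe set had 1382, 1695 and 1726 in mice labelled MKO, against 1096, 1319 and 1457 in FLOX mice (log2 change 0.33, limma adjusted p = 0.0149). On CR 3 of 23 passed, against 16.8% of all probe sets, namely 2 of Adamts5 that were higher and 1 of Mmp14 that was lower. The Mmp14 probe sets disagreed here and on CR in mice labelled MKO, where the second gave -0.31 and the other 2 gave 0.02 and -0.02. The one of second highest mean had 224, 257 and 297 in CR mice labelled MKO, against 257, 367 and 449 in CR FLOX mice (log2 change -0.40 ± 0.12 SE, limma adjusted p = 0.0259), while the brightest had a log2 change of 0.04 and the dimmest of -0.01. Its interaction was -0.43 with a limma adjusted p of 0.973 and an unadjusted p of 0.0208. The 4 probe sets of Timp3 and the 2 of Timp4 were all lower in value in mice labelled MKO on both diets, and none passed.

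**Figure D3:**
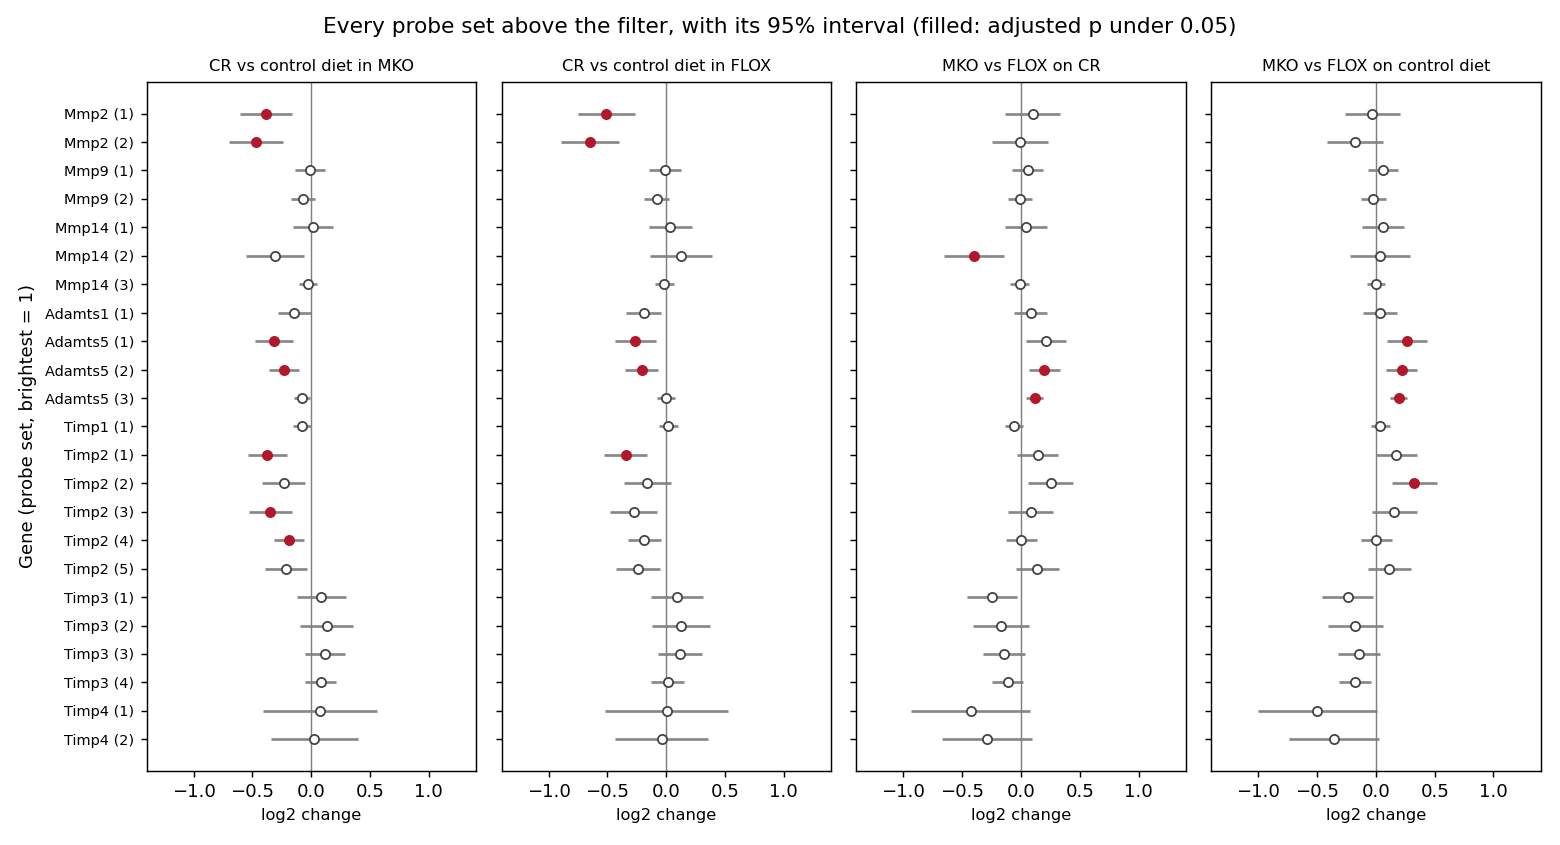
Log2 change with its 95% interval (horizontal axis) for each of the 23 probe sets above the filter, ordered by gene and numbered by brightness, in the 4 comparisons. Filled points passed at a limma adjusted p under 0.05, and the second Mmp14 probe set departs from the other 2 in the comparison of genotypes on CR (-0.40) and, without passing, in that of diets in mice labelled MKO (-0.31).

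Other genes of the same families were read from lists of related proteases, inhibitors and substrates. Beside their counts, 8.48% of all genes were lower and 6.64% higher on CR in mice labelled MKO. For FLOX mice the shares were 5.37% and 4.66%. A count near these shares is not read as a result about a list. Of 8 further matrix metalloproteinases tested, Mmp23 alone passed with diet, lower on CR in mice labelled MKO (log2 change -0.10, limma adjusted p = 0.0262) and in FLOX mice (log2 change -0.15, limma adjusted p = 0.00328). Its signal was weak, with means of 191 in CR mice labelled MKO and 190 in CR FLOX mice, below every array's median (212 to 232). Of 14 other Adamts and Adamts-like genes, Adamtsl4 was higher on CR in mice labelled MKO (log2 change 0.24, limma adjusted p = 0.00864), and none passed in FLOX mice. Among 11 Adam proteases and meprins, Adam17, which sheds membrane proteins, and Bmp1, which trims procollagens, were lower on CR in both genotypes, and Adam9 was lower in mice labelled MKO. Bmp1 changed by -0.33 in mice labelled MKO (limma adjusted p = 2.19e-05) and by -0.21 in FLOX mice (limma adjusted p = 0.00735). The median log2 changes of these 3 families lay between -0.06 and 0.01.

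Of 10 other protease inhibitors and clearance genes, 6 were lower and 1, Spock2, was higher on CR in mice labelled MKO, with a median log2 change of -0.22. The 6 were Serpinf1, Serping1, Cst3, Pcolce, Pcolce2 and Lrp1. In FLOX mice 5 were lower, those 6 without Pcolce2, and none was higher, with a median of -0.23. Among all genes, 8.48% were lower and 6.64% higher on CR in mice labelled MKO, and 5.37% and 4.66% in FLOX mice. Serpinf1, a secreted serpin-family protein that inhibits no protease, changed by -0.77 in mice labelled MKO (limma adjusted p = 1.38e-05) and by -0.85 in FLOX mice (limma adjusted p = 1.79e-05). Cst3, which inhibits cathepsins, changed by -0.32 in mice labelled MKO and by -0.27 in FLOX mice. Pcolce and Pcolce2 enhance the work of Bmp1 on procollagen rather than inhibit it.

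Among 15 cathepsins and other matrix proteases, 3 were lower on CR in mice labelled MKO, and 4 were lower and 1 was higher in FLOX mice. Ctsk, a collagen-cutting cathepsin, and the secreted serine proteases Htra1 and Htra3 were lower in both. Htra1 changed by -0.71 in mice labelled MKO (limma adjusted p = 4.54e-07) and by -0.40 in FLOX mice (limma adjusted p = 0.00171). Of 15 activators and plasminogen-system genes, Pcsk5, Cav1, Cd44 and Itgav were lower on CR in mice labelled MKO, and none passed in FLOX mice. Among 22 upstream regulators, 5 were lower on CR in mice labelled MKO and 2 in FLOX mice, with Tgfb3 and Egr1 in both. The shares of all genes beside these lists were 8.48% lower and 6.64% higher in mice labelled MKO. They were 5.37% and 4.66% in FLOX mice. Tgfb3, a TGF-beta ligand, changed by -0.29 in mice labelled MKO (limma adjusted p = 0.000101) and by -0.26 in FLOX mice (limma adjusted p = 0.00116).

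Among 22 matrix substrates of these proteases, 15 were lower on CR in mice labelled MKO, with a median log2 change of -0.35, and 15 in FLOX mice, with a median of -0.42, and none was higher. Of all genes, 8.48% were lower in mice labelled MKO and 5.37% in FLOX mice. Col4a1, a basement membrane collagen chain, was 1.75-fold lower on CR in mice labelled MKO (limma adjusted p = 4.29e-06) and 1.75-fold lower in FLOX mice (limma adjusted p = 2.15e-05). Sparc, a collagen-binding protein, was 1.74-fold lower in mice labelled MKO (limma adjusted p = 1.31e-05) and 1.79-fold lower in FLOX mice (limma adjusted p = 3.8e-05). Whether the substrates and the 9 genes differ in the size of their changes was not tested.

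**Figure D4:**
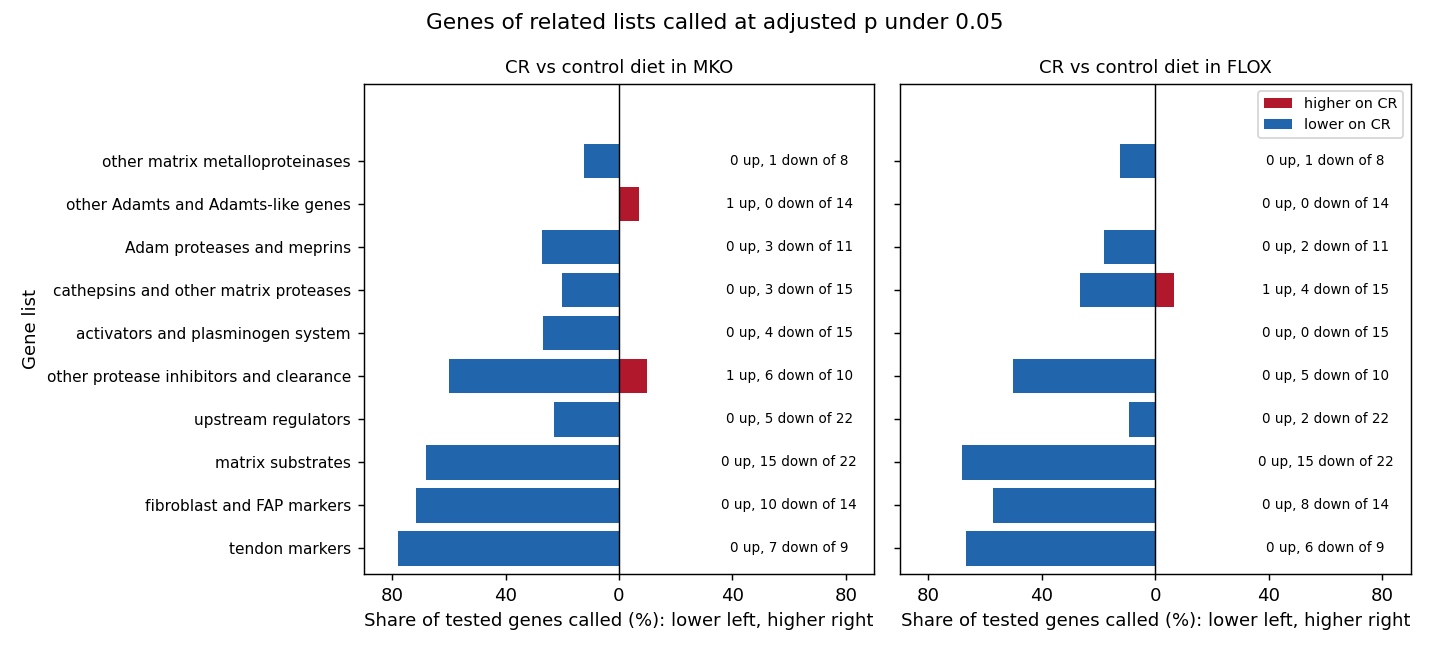
Share of tested genes in each related list (horizontal axis, percent) called lower (left of 0) or higher (right of 0) on CR at a limma adjusted p under 0.05, in mice labelled MKO and in FLOX mice. Matrix substrates and fibroblast and tendon markers show the longest bars, each on the lower side, and the counts stand beside them.

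Many markers of cells that make matrix were also lower on CR. Among all genes 8.48% were lower in mice labelled MKO and 5.37% in FLOX mice. Of 14 fibroblast markers 10 were lower on CR in mice labelled MKO, with a median log2 change of -0.30, and 8 in FLOX mice, with a median of -0.36. Their summed intensity was 18952 to 27954 in CR mice labelled MKO and 28262 to 32532 in control-diet mice labelled MKO. It was 18828 to 26110 in CR FLOX mice and 24892 to 30303 in control-diet FLOX mice. Thy1, a fibroblast surface marker, changed by -0.37 in mice labelled MKO (limma adjusted p = 9.6e-05) and by -0.37 in FLOX mice (limma adjusted p = 0.000356). Of 9 tendon markers 7 were lower in mice labelled MKO, with a median of -0.67, and 6 in FLOX mice, with a median of -0.49. The tendon list shares Fmod with the substrates, and the fibroblast list shares Dcn and Lum. Summed tendon signal was 3336 to 7166 in CR mice labelled MKO and 7417 to 10496 in control-diet mice labelled MKO. In FLOX mice it was 5358 to 6870 on CR and 7475 to 11536 on the control diet. The tendon-defining genes Tnmd and Chad were among those lower in both genotypes, with Tnmd at -0.71 in mice labelled MKO (limma adjusted p = 0.000496) and -0.74 in FLOX mice (limma adjusted p = 0.00118). The part of these cells in the changes of Mmp2, Timp2 and Adamts5 was not tested.

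Markers of immune and vessel cells were read beside the shares of all genes called with diet. On CR 8.48% of all genes were lower and 6.64% higher in mice labelled MKO, and 5.37% and 4.66% in FLOX mice. Of 13 macrophage markers, none passed on CR in mice labelled MKO and 1, Adgre1, was lower in FLOX mice. Of 10 neutrophil and mast cell markers, S100a8 alone passed, higher on CR in FLOX mice (log2 change 0.37, limma adjusted p = 0.0315). Of 17 endothelial and mural markers 4 were lower on CR in mice labelled MKO, among them Kdr (log2 change -0.50, limma adjusted p = 0.000775), and 1, Emcn, was lower in FLOX mice. No marker list had a gene at 0, since every probe set on these arrays carries a background signal.

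Within groups, some of the 9 genes varied together among mice. After each group's mean was taken out, Mmp2 and Timp2 correlated at r = 0.82 over the 26 arrays, and Timp3 and Timp4 at r = 0.74. Mmp14 correlated with Timp2 at r = 0.65 and with Adamts5 at r = 0.64, but with Timp3 at r = -0.63. Adamts1 and Adamts5, neighbours in the genome, had r = 0.23. Points share the array, its scaling and the mouse's mix of cells, and the values are a description of likeness.

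The other genes of the table most like each member were read the same way. They were picked as the highest r among all other named genes tested, and such picking by itself favours high values. Closest to Mmp2 were Col6a1 (r = 0.82), a chain of type VI collagen, and Bgn (r = 0.79), a small proteoglycan. Timp2 was most like Scara5 (r = 0.85) and Lrp1 (r = 0.84), an endocytic receptor that clears proteases with their inhibitors. Mmp14 was most like Pf4 (r = 0.86) and Loxl1 (r = 0.83), an enzyme that crosslinks elastin. Timp3 was most like Klf13 (r = 0.89) and Fibin (r = 0.81), and Timp4 was most like Noct (r = 0.89) and Mcf2l (r = 0.87). Adamts5 was most like Akap8 (r = 0.78) and F3 (r = 0.77), although without removing the group means its r with Akap8 was -0.19. Adamts1 was most like Rcbtb2 (r = 0.79) and Itga6 (r = 0.76), Mmp9 like Ercc2 and Vsir (r = 0.82 each), and Timp1 like Mast3 (r = 0.76) and Cgnl1 (r = 0.75). Apart from Akap8, the largest falls without removing the group means were to 0.44 (Mmp14 and Loxl1), 0.53 (Adamts1 and Rcbtb2) and 0.60 (Mmp2 and Bgn).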

How the data were processed

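The authors deposited 1 intensity per probe set and array on a linear scale. The sources used here do not say how they corrected background, summarised probes or normalized arrays. Deposited values were turned into log2(intensity + 16), with no further normalization. Of 45101 probe sets, 64 were controls, 34945 named 1 gene in the platform annotation, 932 several and 9160 none. Probe sets whose mean lay under the 30th percentile (log2 7.47) were left out, and the brightest of a gene was tested, giving 14854 genes. Array medians lay between 212 and 232, and the number of arrays limits precision.

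limma 3.58.1 in R 4.3.3 was fitted with 1 mean per group over all 26 arrays, with Benjamini-Hochberg adjustment over all genes. Each array is a separate mouse per the labels. The members and the lists were chosen with earlier results of these data known. Named genes are the members, the called genes of smallest p in each list (up to 3, or 2 for markers) and the 2 genes most like each member. A few others named beside a count (Lrp1, Pcolce, Pcolce2, Spock2, Serping1, Itgav, Dcn, Lum and Fmod) were chosen after their values were seen. Alternatives changed the pseudocount, filter, normalization, choice of probe set, variance model, weights, arrays fitted, pairing and threshold, and left out each mouse. No scan date was used, so batches were not tested. Adamts2 is not analysed here.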

Additional observations from a re-analysis of the deposited data

Results flagged for a closer look

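Of 36 checks, 9 genes in 4 groups, 1 mouse stood far from the rest of its group. Control-diet FLOX mouse 6 had the lowest Mmp14 intensity, 244, and its gap to the next mouse was 0.679 of the range of that group (n = 6). Chance alone marks about 1 in 20 such groups. With each mouse left out in turn, the Mmp14 change on CR in FLOX mice lay between -0.03 and 0.10 on the log2 scale.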

How the results depend on the processing

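Counts of called genes kept their direction in both diet comparisons. For CR in FLOX mice (3 called), averaging the probe sets of a gene and an adjusted p under 0.01 each left 1, Mmp2, and leaving out 1 mouse gave 2 to 3. For CR in mice labelled MKO (3 called) an adjusted p under 0.01 and the omission of the 3 mice of high slow-fibre signal each gave 2, without Mmp2, and leaving out 1 mouse gave 3 to 4. For genotype on the control diet (1 called) fitting every probe set gave 2, an adjusted p under 0.01 gave 0 and leaving out 1 mouse gave 0 to 2. For genotype on CR (0 called) the count was 1, Adamts5, with quantile normalization, averaged probe sets, an adjusted p under 0.1 and without the 3 mice of high slow-fibre signal, an alternative chosen after seeing the data, 2 with every probe set, and 0 to 1 when a mouse was left out. Deviations of same-numbered mice from their group means correlated at r between -0.36 and 0.34 (37 pairs, median 0.08). Of these, 16 were over 0.1 and 5 were best with their own number. Such a check cannot exclude pairing by number or shared litters. The replicate block gave 1 for genotype on CR, Adamts5 (limma adjusted p = 0.0174), with 0 for the interaction. On CR in FLOX mice Adamts5 missed the threshold without a filter (limma adjusted p = 0.0546), with median centring (adjusted p = 0.0588) and with averaged probe sets (adjusted p = 0.0769). Timp2 missed it with averaging (limma adjusted p = 0.0581), and Adamts1 passed with only the groups compared (limma adjusted p = 0.0247) and with the block (adjusted p = 0.0435). Signs turned only for changes near 0. Timp4 on CR in FLOX mice was -0.000257 with median centring, -0.0157 with averaging and -0.11 without the slow-fibre mice, and -0.11 to 0.16 when a mouse was left out. Mmp9 on CR in FLOX mice was 0.00874 with array weights. Mmp14 on CR in mice labelled MKO was -0.11 with averaging and -0.0256 with weights, and Mmp14 between genotypes on CR was -0.12 with averaging. Adamts1 between genotypes on the control diet was -0.0026 without the slow-fibre mice. Leaving out 1 mouse gave, on CR in FLOX mice, -0.0235 to 0.0256 for Mmp9 and -0.0321 to 0.0964 for Mmp14; on CR in mice labelled MKO, -0.0545 to 0.0380 for Mmp9, -0.0341 to 0.0649 for Mmp14 and -0.0462 to 0.20 for Timp4; between genotypes on the control diet, -0.0862 to 0.0184 for Mmp2, -0.00693 to 0.0899 for Mmp14 and -0.0162 to 0.0619 for Adamts1; and on CR, -0.0182 to 0.0963 for Mmp14. With a filter at the 50th percentile 8 genes were tested, without Timp1.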

Other observations

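Between genotypes, 17.3% of all genes passed on CR and 19.3% on the control diet, so single genes of the related lists are given as values and no list is read as set apart. Adamtsl5, an Adamts-like gene without protease activity, was lower in mice labelled MKO, by a log2 change of -0.53 on CR (limma adjusted p = 1.03e-08) and -0.42 on the control diet (limma adjusted p = 7.49e-07). The lysosomal protease Ctsl, cathepsin L, was higher in mice labelled MKO on CR (log2 change 0.44, limma adjusted p = 5.27e-05) and on the control diet (log2 change 0.34, limma adjusted p = 0.00141). Ctsz and Adam10, another sheddase, were also higher on both diets. Of 15 cathepsins and other matrix proteases, 2 were higher and 1 was lower on CR, and 3 were higher and 2 lower on the control diet.

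Among 22 upstream regulators, 3 were higher in mice labelled MKO on CR (Tgfb3, Tgfbr1 and Smad2), and on the control diet 5 were higher and 1, Tgfb1, was lower. Tgfbr1, a receptor for TGF-beta, changed by 0.31 on CR (limma adjusted p = 0.000688) and by 0.28 on the control diet (limma adjusted p = 0.00215). Scx, a transcription factor of tendon cells, was higher in mice labelled MKO by 0.62 on CR (limma adjusted p = 9.9e-07) and by 0.47 on the control diet (limma adjusted p = 6.8e-05), while 0 of the other 8 tendon markers tested passed on either diet. Col1a1 and Col6a1 were lower in mice labelled MKO on the control diet, and 0 of 22 matrix substrates passed on CR.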
